A study of Mus musculus with 6 samples.

Results

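The cells described here are a small fraction of the irradiated mouse submandibular gland that carried RNA of secreted proteins of the intercalated duct or the acinus. They were chosen from the library of irradiated epithelium by their RNA counts alone. A cell barcode needed at least 500 genes, at most 20% of its unique molecular identifiers (UMIs, 1 per RNA molecule captured) from mitochondrial genes, and either at least 1% of its gene UMIs from Wfdc18 or at least 0.2% from Bpifa2, Dcpp1 and Dcpp3 together. The rule chose 130 of 2629 irradiated barcodes past the filter, or 4.94%, of 11140 such barcodes in the whole series. Of the 130, 106 met only the Wfdc18 condition, 9 only the Bpifa2 and Dcpp condition, and 15 both. They were set against 584 of 4093 untreated barcodes with Wfdc18 at 1% or more and with Mucl2, Pip, Prol1, Scgb1b27, Scgb2b27, Smgc and Car6, 7 products of acinar cells, under 30% of gene UMIs.

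The study measured single-cell RNA in sorted epithelium of female C57BL/6J mice, an inbred laboratory strain, with droplet libraries. Untreated whole epithelium (3 mice) was compared with whole epithelium of mice whose left gland had received 30 Gy of radiation 90 days earlier (3 mice), and a basal sort of untreated glands made up the third library. All cells were sorted for the epithelial surface protein Epcam, without dead cells and without cells carrying Cd3, Cd16/32, Cd31 or Cd45. Each library pooled its 3 mice, told apart by antibody hashtags, so library and treatment cannot be told apart. The labels give 8 to 10 weeks of age for all mice, also for those collected 90 days after the dose, so age at collection may differ between the groups. Time since the dose cannot be told apart from the dose. Per the study's title the glands are wild-type, and the sample titles say so for the untreated libraries only.

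Intercalated ducts are the first segment that leads saliva out of the acini, the secretory end pieces of the gland. Their cells have been studied as a possible source of new acinar cells, which are lost after irradiation. Wfdc18 encodes a small secreted protein with a whey acidic protein domain, Bpifa2 a salivary protein of the BPI fold family, and Dcpp1 and Dcpp3 are demilune and parotid cell proteins, secreted by serous demilune cells. The Dcpp genes are near-identical neighbours on chromosome 17 and reads can be split between them, so their separate values are uncertain.

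Hashtags assigned 19 of the irradiated cells to mouse 1, 63 to mouse 2 and 11 to mouse 3, while 9 were hashtag doublets and 28 had no call. The cells made up 5.25%, 4.79% and 2.31% of the hashtagged cells of these mice, with a mean of 4.12% ± 1.58 (SD, n = 3). The untreated comparison cells numbered 146, 130 and 162 and made up 20.4%, 16.9% and 23.9% of their mice, with a mean of 20.4% ± 3.53 (SD, n = 3). With the untreated rule applied to both libraries the irradiated share was 3.74% ± 1.24 (SD, n = 3). These shares follow from the rule, so they carry no test. In sorted cells, fewer cells of a type and less RNA per cell cannot be told apart. The 2 libraries shared 8 barcodes in all.

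**Figure D1:**
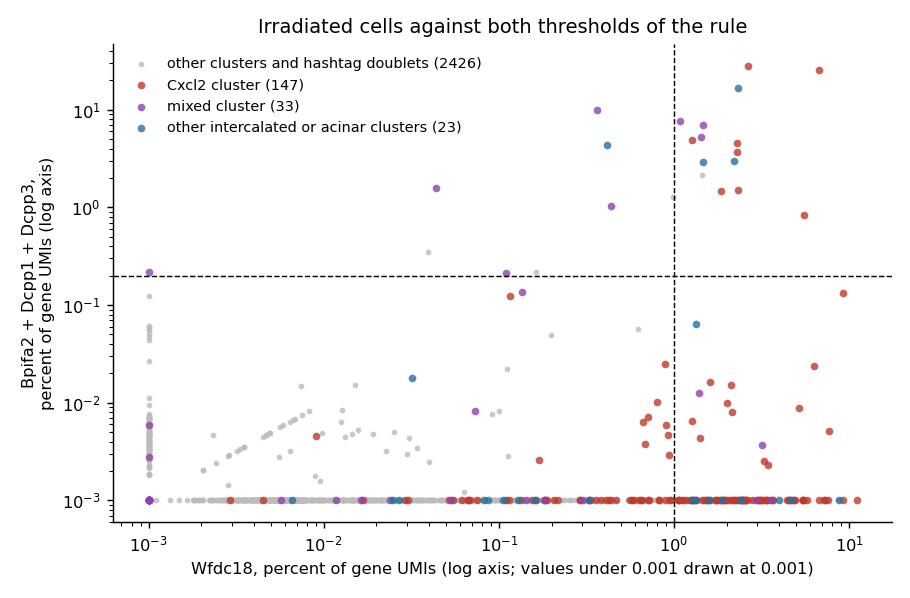
Each point is an irradiated cell past the filter, by its Wfdc18 share (x axis) and its summed Bpifa2, Dcpp1 and Dcpp3 share (y axis), both in percent of gene UMIs on log axes with values under 0.001 drawn at 0.001. Colours mark the cluster led by Bpifa2 and Cxcl2, the mixed cluster and other intercalated or acinar clusters, and dashed lines the rule's limits. Of the 130 selected irradiated cells, 106 lie past the Wfdc18 limit alone, 9 past the other limit alone and 15 past both.

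The Wfdc18 limit cut through a continuous range of values. The 5 selected cells nearest to the Wfdc18 limit held 1.05%, 1.07%, 1.08%, 1.08% and 1.11%, and the 5 nearest cells outside it held 0.998%, 0.993%, 0.968%, 0.938% and 0.936%. Within 1.5 times of that limit lay 30 cells inside and 29 outside. The Bpifa2 and Dcpp limit was crossed by fewer cells, with 0.214%, 0.218%, 0.219%, 0.354% and 0.843% just inside and 0.135%, 0.134%, 0.124%, 0.123% and 0.0634% just outside.

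By cluster, most of these cells lay with the intercalated duct and few with acinar cells. Irradiated and untreated cells were clustered together, and clusters were named from marker lists. Wfdc18 is itself on the intercalated duct list, so the placement follows in part from the rule and is no test of the label. Of the 130 cells, 98 lay in intercalated duct-like clusters, as did 520 of the 584 comparison cells. Only 3 lay in acinar-like clusters, 3 in ionocyte-like, 2 in granular duct-like, 1 in a basal duct-like, 1 in a striated duct-like and 1 in an unnamed cluster, and the 9 hashtag doublets were not clustered. The other 12 lay in a cluster in which all basal duct and all fibroblast markers were raised, here called the mixed cluster. It held 7 cells of mouse 1, 2 of mouse 2 and 3 without a hashtag call. Because of this, the cells are called the Wfdc18/Bpifa2/Dcpp cells or the selected irradiated cells below, and results that rest on the mixed cluster are given with and without it.

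Within the intercalated duct-like clusters the cells fell into unequal groups. A cluster led by Bpifa2, Cxcl2, Tm4sf1, Lif, Cxcl1 and Lcn2 held 88 of them, with 5, 52 and 10 cells of mice 1, 2 and 3. It held 147 irradiated and 11 untreated cells in all. The other 10 lay in clusters made up mostly of untreated cells, 5 from mouse 1, 3 from mouse 2 and none from mouse 3. Over those 10 cells Cdkn1a stood at 31.2 CPM (UMIs of the gene per 1e6 gene UMIs, the unit of all levels below), Cxcl2 at 62.3 and Lif at 0, against 1948, 1894 and 248 CPM over the 88. The small secreted peptide gene Esp4 ran the other way, at 1163 CPM over the 10 and 172 CPM over the 88. A further 59 irradiated cells of the same cluster missed the rule, with a median Wfdc18 share of 0.293%. These outsiders carried Cdkn1a at 1712 CPM, Cxcl2 at 1490 CPM and Lcn2 at 1022 CPM, close to the members' 1948, 1894 and 953 CPM. As clusters were formed on these genes, the levels carry no test.

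Depth and cell quality moved with the treatment. The selected irradiated cells had a median of 16808.5 UMIs and 3379.5 genes, and the comparison cells 6761.5 UMIs and 2150 genes. The median mitochondrial share was 2.16% and 6.53%. Their part in the results below was not tested. Summed per mouse without the 11 genes of the rule, the untreated mice had 1278050, 1184271 and 1339600 UMIs, so 1 UMI was worth 0.782, 0.844 and 0.746 CPM. The irradiated mice had 304065, 1257100 and 204912 UMIs, so 1 UMI was worth 3.29, 0.795 and 4.88 CPM. Low levels in irradiated mice 1 and 3 therefore rest on few molecules. Without the mixed cluster the sum of mouse 1 was 145832 UMIs.

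Marker lists of other cell types moved unevenly. The defining markers of leukocytes and fibroblasts were at 0 in the irradiated sums, with Ptprc and 11 of 13 immune markers, all 5 neutrophil markers, and 6 of 7 fibroblast markers including Col1a1, Col1a2 and Col3a1 undetected. The 7 basal duct markers summed to 109, 91.2 and 94.1 CPM in the untreated mice and to 1437, 769 and 122 CPM in the irradiated mice, or 117, 572 and 122 CPM without the mixed cluster. The 17 granular duct markers, products of the large kallikrein-filled duct cells, summed to 6523, 3183 and 2299 CPM in the untreated and 2963, 4350 and 2640 CPM in the irradiated mice, which overlap. The 7 intercalated duct markers outside the rule summed to 890, 941 and 971 CPM in the untreated mice. They summed to 3683, 330 and 332 CPM in the irradiated mice, and mouse 1 fell to 363 CPM without the mixed cluster, which carried its Csn3.

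The genes that chose the cells are described first, with no test. Wfdc18 (chr11:83709004-83711360, mm10 build) took 3.61%, 4.22% and 3.79% of the summed UMIs in the untreated mice and 1.56%, 3.04% and 4.10% in the irradiated mice. In granular duct-like cells of the same mice it reached at most 0.0140%, a level read here as background. Bpifa2 (chr2:154008276-154016073) took 1.94%, 1.86% and 0.000468% in irradiated mice 1, 2 and 3. Dcpp3 (chr17:23917419-23919441) took 1.26%, 0.477% and 0.0108%. Mouse 3 thus had Wfdc18 cells and almost no Bpifa2 or Dcpp3.

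Bpifa2 and Dcpp RNA came from a handful of cells. The 3 highest cells held 92.9% of the 34654 Bpifa2 UMIs, and 110 of the 130 cells had none. Dcpp1 and Dcpp3 were both at 0 in 108 cells. The 24 cells past the Bpifa2 and Dcpp limit mostly carried 1 gene, which made up at least 90% of the UMIs of Bpifa2 and the 3 Dcpp genes in 17 of them. Bpifa2 led in 8 cells, of which 7 had no Dcpp UMI at all. One cell of mouse 2 held 14299 Bpifa2 UMIs and 0 of Dcpp1, Dcpp2 and Dcpp3, while another cell of that mouse held 11938 Bpifa2, 1863 Dcpp1 and 4085 Dcpp3 UMIs. Dcpp1 led in 6 cells and Dcpp3 in 10, and 7 of those 10 lay in the mixed cluster. Hashtag doublets made up 1 of the 8 Bpifa2-led and 2 of the 10 Dcpp3-led cells.

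These cells also differed in what else they carried. All 8 Bpifa2-led cells had at least 1% of their UMIs from the 7 acinar genes, and none of the 16 Dcpp-led cells did. Lcn2 reached 10 UMIs in 1 of the 8 Bpifa2-led, 6 of the 6 Dcpp1-led and 7 of the 10 Dcpp3-led cells. Cxcl2 reached 10 UMIs in 0, 3 and 4 of them. The untreated comparison held 2 cells past the same limit, both in an acinar-like cluster and both with Dcpp1, Dcpp2 and Dcpp3 together, at 12894, 19518 and 31365 UMIs in one and 16049, 45207 and 67946 in the other. Dcpp2 had 30, 1 and 0 UMIs in the sums of irradiated mice 1, 2 and 3, and 2, 2 and 19524 UMIs in those of the untreated mice. Of the last, 19518 UMIs lay in 1 cell, so Dcpp2 was almost missing from the other cells of both groups.

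**Figure D2:**
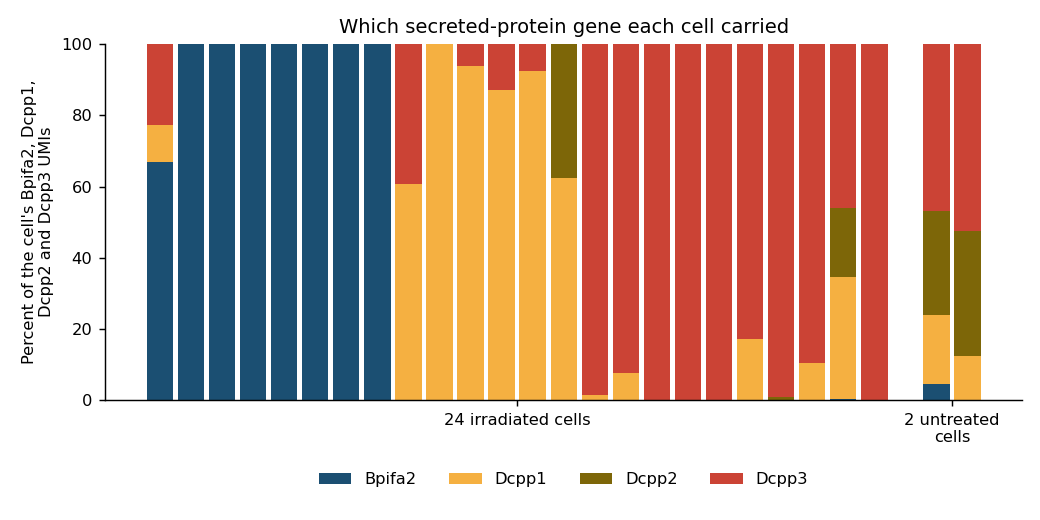
For each of the 24 irradiated cells past the Bpifa2 and Dcpp limit and the 2 untreated ones, 1 bar per cell divides its UMIs of Bpifa2, Dcpp1, Dcpp2 and Dcpp3 among the 4 genes (y axis, percent of their sum). In 17 of the 24 irradiated cells 1 gene makes up at least 90% of the 4, and both untreated cells carry the 3 Dcpp genes together.

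The acinar genes of the rule were low in most cells. Their summed share had a median of 0.0312% in the selected irradiated cells and 2.08% in the comparison cells, and no untreated barcode past the filter, of any type, held less than 0.255%. Of the 130 irradiated cells, 15 held at least 1% and 4 at least 30%, with a maximum of 64.3% in a hashtag doublet. Smgc, a secretory protein of the neonatal and female gland, had 0, 1 and 0 UMIs in irradiated mice 1, 2 and 3, against 6101, 24768 and 13890 UMIs in the untreated mice. Mucl2 took 1.30%, 1.63% and 1.32% of UMIs in the untreated mice and 0.0568%, 4.53% and 0.0164% in the irradiated mice, where mouse 2 alone held the 3 cells of the acinar-like clusters. Over those 3 cells Mucl2 reached 442135 CPM. Both genes were also lower in irradiated granular duct-like cells, so the falls are not particular to the selected cells. There Smgc took 0.204%, 0.168% and 0.0156% in the untreated and 3.58e-05%, 4.01e-05% and 4.08e-05% in the irradiated mice. Mucl2 took 0.529%, 0.557% and 0.535% and then 0.0170%, 0.0315% and 0.169%. The part of background RNA in these values was not tested.

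Genes outside the rule were then compared between the 3 irradiated and the 3 untreated mice with edgeR's quasi-likelihood test on the sums per mouse. Of 8056 genes tested, 1097 (13.6%) were higher and 802 (9.96%) lower at an adjusted p (Benjamini-Hochberg) under 0.05. The 3 irradiated values lay above the 3 untreated ones for 13.8% of genes and below them for 28.6%. Levels in CPM are scaled by each mouse's summed UMIs alone, without the TMM factors of the test. Shares without overlap and shares called are therefore not on the same scale. The median log2 fold change was -0.04. Without irradiated mouse 2, which held most cells, 639 were higher and 345 lower. Leaving out untreated mouse 1, 2 or 3 gave 498, 378 and 399 lower genes, and without untreated mouse 3 there were 707 higher genes. A gene absent from the untreated cells or low in them could pass the low-count filter only through the irradiated mice. This held, among others, for Eda2r, Slpi, Osmr, Rsad2, Ifit3b, Pdgfb, Pmepa1, Krt19, Areg and Casp4. Their fold changes are therefore given below without a test. Such genes stay in the counts of the lists and of all genes, where they could be called higher but hardly lower. Genes named for the largest changes were picked among those without overlap between the groups. For them, Cdkn1a, Rsad2 and Foxc1 included, the lack of overlap follows from the choice. Fold changes below are log2, irradiated over untreated, with their standard error.

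Targets of p53, the transcription factor that DNA damage stabilises, rose as a group. Of 26 tested genes of the p53 list (30 listed), 19 rose and none fell, against 13.6% of all genes, and their median log2 fold change was 2.48. Eda2r, which could pass the filter only through the irradiated mice, was among the 19. The same number rose whichever of the 3 untreated mice, or irradiated mouse 2 or 3, was left out, and 20 rose without irradiated mouse 1. The list and the cells were chosen with earlier results of these data known.

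Cdkn1a (chr17:29090979-29100722), which encodes the cell cycle inhibitor p21, stood at 76.7, 38.8 and 36.6 CPM in untreated mice 1, 2 and 3 and at 2601, 1722 and 1894 CPM in irradiated mice 1, 2 and 3 (5.51 ± 0.30, adjusted p = 6.4e-06). The lowest irradiated mouse lay far above the highest untreated one. Mdm2, the ligase that degrades p53, stood at 21.9, 19.4 and 20.2 CPM and at 273, 162 and 200 CPM (3.49 ± 0.21, adjusted p = 8.7e-06). Eda2r, a receptor of the tumour necrosis factor receptor family, stood at 2.35, 0.844 and 0.746 CPM and at 39.5, 42.2 and 43.9 CPM (5.04 ± 0.42). Neither overlapped between groups. Psrc1 (4.50 ± 0.51) and Phlda3 (4.18 ± 0.40) followed, the latter an inhibitor of Akt signalling. The death effector Bax stood at 81.4, 79.4 and 69.4 CPM and at 358, 436 and 468 CPM (2.64 ± 0.20, adjusted p = 2.2e-05).

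Cdkn1a was raised in most of the cells, not in a few. After each cell was thinned to 3000 UMIs, which left out 11 of the selected and 59 of the comparison cells, 87.5%, 80.6% and 100% of the cells of irradiated mice 1, 2 and 3 had a Cdkn1a UMI. In the untreated mice the shares were 13.2%, 9.17% and 6.49%. Before thinning the shares over all cells were 88.5% and 16.8%. Granular duct-like cells of the irradiated library had a Cdkn1a UMI in 56.5% of thinned cells.

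The secreted and inflammatory genes given as marks of these cells, Cxcl2, Lcn2 and Lif, were picked with their difference known and are described without a test. Lcn2 (chr2:32384637-32387739), an antimicrobial protein that binds bacterial siderophores, stood at 16.4, 18.6 and 33.6 CPM in the untreated and 1825, 877 and 795 CPM in the irradiated mice. Cxcl2 (chr5:90903899-90905938), a chemokine that attracts neutrophils, stood at 96.2, 32.9 and 102 CPM and at 835, 1414 and 1147 CPM. Lif (chr11:4257568-4272514), a cytokine of the interleukin 6 family, stood at 8.61, 0.844 and 8.96 CPM and at 148, 277 and 151 CPM. None overlapped between the groups, with fitted log2 fold changes of 5.80, 4.06 and 5.18. In mouse 1 all Cxcl2 came from the mixed cluster: without it the irradiated values were 0, 1359 and 1147 CPM for Cxcl2, 631, 849 and 795 CPM for Lcn2, and 27.4, 249 and 151 CPM for Lif. Mouse 1 then lay below every untreated mouse for Cxcl2. No neutrophil marker was detected in any of the 6 sums.

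Unlike Cdkn1a, these 3 genes were found in part of the cells. Thinned to 3000 UMIs, 40.3% of the selected irradiated and 4.38% of the comparison cells had a Cxcl2 UMI, against 0.417% of irradiated granular duct-like cells. Lcn2 was found in 51.3% and 4.57%, against 12.3% of the granular duct-like cells, and Lif in 35.3% and 0.381%, against 1.17%. In irradiated ionocyte-like cells the thinned shares were 6.53% for Cxcl2, 0.680% for Lcn2 and 2.31% for Lif. Before thinning the shares in the selected cells were 50% for Cxcl2, 70% for Lcn2 and 59.2% for Lif, at a median depth of 16808.5 UMIs. The granular duct-like cells had a median of 23620 UMIs.

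NF-kB is the transcription factor family through which cytokines and cell damage switch on inflammatory genes, held back in the cytoplasm by inhibitors such as the product of Nfkbia. Of 22 tested genes of that list (26 listed), 16 rose and none fell, against 13.6% of all genes, with a median log2 fold change of 1.38. Without irradiated mouse 2 only 8 passed, and 13 to 18 passed without any other mouse. All subunit genes were among the 16: Rel (1.59), Relb (1.56), Nfkb2 (1.66), Nfkb1 (1.4) and Rela (1.39), of which Rel was lost without irradiated mouse 2 (adjusted p = 0.205) or untreated mouse 2 or 3 (0.0971 and 0.109). The promoters of Cxcl2 and of Nfkbia are shown because both genes were higher in the selected irradiated cells and carry a motif of the NF-kB type, written in capitals (GGG, any 2 bases, then TTTCC, on either strand). The sequences are from RefSeq (GRCm38.p6, 250 bases before to 50 after the annotated start, in the gene's direction), at chr5:90903649-90903948 on the + strand for Cxcl2 and chr12:55492598-55492897 on the - strand for Nfkbia.
Cxcl2 promoter: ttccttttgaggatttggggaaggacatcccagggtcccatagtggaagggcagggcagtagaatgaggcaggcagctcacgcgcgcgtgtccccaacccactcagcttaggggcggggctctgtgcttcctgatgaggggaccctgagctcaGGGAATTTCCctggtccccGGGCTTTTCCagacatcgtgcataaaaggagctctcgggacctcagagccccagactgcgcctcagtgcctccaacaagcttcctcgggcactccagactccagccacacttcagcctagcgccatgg
Nfkbia promoter: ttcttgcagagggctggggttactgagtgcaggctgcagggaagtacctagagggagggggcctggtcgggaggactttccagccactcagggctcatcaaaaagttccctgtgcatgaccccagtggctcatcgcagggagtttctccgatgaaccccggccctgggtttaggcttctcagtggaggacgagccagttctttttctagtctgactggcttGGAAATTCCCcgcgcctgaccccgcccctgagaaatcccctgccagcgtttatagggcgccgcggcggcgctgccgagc
The motif was in 1.63% of 32851 RefSeq promoters, and in 5 of 15 promoters, of 3 genes out of 13 with an entry (Nfkb2, Nfkbia and Rel), of the NF-kB list genes that rose. A match describes the letters and shows no binding.

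Nfkbia stood at 490, 551 and 487 CPM in the untreated and at 1707, 1963 and 1093 CPM in the irradiated mice (1.82 ± 0.20, adjusted p = 0.0002). Icam1, an adhesion protein for leukocytes, stood at 93.9, 128 and 222 CPM and at 585, 862 and 454 CPM (2.30 ± 0.33, adjusted p = 0.00087). Zc3h12a, an RNase that degrades inflammatory messages, stood at 42.3, 27.0 and 33.6 CPM and at 85.5, 177 and 117 CPM (2.17 ± 0.30, adjusted p = 0.00067). All 3 genes were higher in every irradiated than in every untreated mouse. Tnip1 (2.62 ± 0.45) and Tnfaip2 (2.27 ± 0.40) also rose, but without irradiated mouse 2 their adjusted p by edgeR was 0.113 and 0.139.

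Other chemokines were split. Cxcl1, a close relative of Cxcl2, stood at 509, 346 and 638 CPM in the untreated and 1158, 1486 and 1186 CPM in the irradiated mice (1.54 ± 0.23, adjusted p = 0.0011), and its call was lost without the mixed cluster (1.11, adjusted p = 0.19). Cxcl16 rose (1.64 ± 0.36), though its adjusted p was 0.0512 without untreated mouse 2. Cxcl17, a chemokine of mucosal epithelia, fell from 1291, 1109 and 1276 CPM to 431, 755 and 688 CPM (-0.77 ± 0.22, adjusted p = 0.029), a call lost without any of the untreated mice (adjusted p = 0.115, 0.0674 and 0.102). Of the 9 tested chemokines 3 rose, Cxcl2 among them, and 1 fell, against 13.6% and 9.96% of all genes. Without the mixed cluster 2 of 10 rose, and 7 of 14 rose without irradiated mouse 1, as did 5 of 13 and 5 of 11 without untreated mouse 1 and 3.

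Of 15 tested genes of the interleukin 6 family and its STAT3 feedback, 7 rose and 2 fell, against 13.6% and 9.96% of all genes, with a median log2 fold change of 0.57. The 7 include Lif, picked with its difference known, and Osmr, which could pass the filter only through the irradiated mice. Without the mixed cluster 5 of 13 rose and 3 fell, and the median was 0.0063. Osmr, the oncostatin M receptor chain, stood at 3.91, 5.07 and 2.24 CPM in the untreated and 39.5, 35.8 and 58.6 CPM in the irradiated mice (3.61 ± 0.38). Stat3, the transcription factor that the family activates, stood at 78.2, 72.6 and 62.7 CPM and at 204, 175 and 195 CPM (1.59 ± 0.17, adjusted p = 0.00018). The irradiated mice lay above the untreated ones in both. Cebpd, itself a common Stat3 target, fell from 913, 896 and 893 CPM to 441, 419 and 156 CPM (-1.21 ± 0.27, adjusted p = 0.0094), but did not pass with Wfdc18 at 2% or more (-0.54, adjusted p = 0.101). Among antimicrobial genes Slpi, a secreted protease inhibitor, rose from 3.13, 0.844 and 2.24 CPM to 55.9, 23.9 and 48.8 CPM (4.18 ± 0.50).

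Interferons are cytokines that switch on a set of antiviral genes in the cells that sense them. Of 24 tested interferon-stimulated genes (33 listed), 15 rose and none fell, against 13.6% of all genes that rose, with a median log2 fold change of 1.70. Rsad2 and Ifit3b, which could pass the filter only through the irradiated mice, were among the 15. The number was 9 of 23 tested without irradiated mouse 2 and 23 of 26 tested without irradiated mouse 1, which had the lowest values of several of these genes. The promoters of Rsad2 and Isg15 are shown because they hold GAAA, any 2 bases, then GAAA, a motif of the interferon response type, on either strand (capitals mark every match). They are RefSeq sequences of GRCm38.p6, at chr12:26456403-26456702 on the - strand for Rsad2 and chr4:156200769-156201068 on the - strand for Isg15, where 3 matches overlap.
Rsad2 promoter: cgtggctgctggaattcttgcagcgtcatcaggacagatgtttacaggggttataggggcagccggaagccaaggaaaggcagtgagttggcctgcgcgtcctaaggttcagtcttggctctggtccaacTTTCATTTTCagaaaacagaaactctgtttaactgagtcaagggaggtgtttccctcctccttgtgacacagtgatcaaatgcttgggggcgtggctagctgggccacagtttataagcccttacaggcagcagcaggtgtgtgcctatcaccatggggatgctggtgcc
Isg15 promoter: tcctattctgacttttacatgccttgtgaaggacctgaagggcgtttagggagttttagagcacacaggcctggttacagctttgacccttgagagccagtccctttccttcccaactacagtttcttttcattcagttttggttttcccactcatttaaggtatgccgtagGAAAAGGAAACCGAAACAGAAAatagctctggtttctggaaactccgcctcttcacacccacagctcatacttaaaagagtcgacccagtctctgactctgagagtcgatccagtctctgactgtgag
The motif was in 3.44% of all 32851 promoters and in 9 of 16 promoters, of 9 genes out of 13 with an entry, of the interferon list genes that rose. It was in none of the 15 promoters of the NF-kB list genes that rose, and the NF-kB motif was in none of these 16.

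Rsad2, which encodes the antiviral protein viperin, stood at 0.782, 1.69 and 5.23 CPM in the untreated mice and at 9.87, 204 and 542 CPM in the irradiated mice (6.62 ± 1.06). The groups did not overlap, but the irradiated mice ranged widely and the value of mouse 1 rested on few UMIs. Isg15, a ubiquitin-like protein, stood at 236, 222 and 278 CPM and at 516, 669 and 1181 CPM (1.86 ± 0.29, adjusted p = 0.0014), with mouse 1 again the lowest. Ifit3b, which shares reads with its neighbour Ifit3, stood at 7.04, 16 and 8.21 CPM and at 16.4, 181 and 244 CPM (4.03 ± 0.65). Thinned to 3000 UMIs, 9.24% of the selected irradiated and 0.571% of the comparison cells had an Rsad2 UMI. In irradiated mice 1, 2 and 3 the shares of the selected cells were 0%, 12.9% and 20%. Irradiated ionocyte-like and granular duct-like cells had shares of 8.44% and 5.09%, so Rsad2 was not particular to the selected cells.

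Antigen presentation by class I molecules rose in part. Of 18 tested genes 9 rose and 1 fell, against 13.6% and 9.96% of all genes, with a median log2 fold change of 0.66, and 6 rose without irradiated mouse 2. H2-Q4 stood at 119, 151 and 132 CPM in the untreated and 289, 566 and 522 CPM in the irradiated mice (1.98 ± 0.27, adjusted p = 0.0006). Tap1, a subunit of the peptide transporter, stood at 52.4, 49.0 and 40.3 CPM and at 145, 172 and 161 CPM (1.95 ± 0.19, adjusted p = 0.00013). Both were higher in every irradiated mouse. H2-Q7 also rose (2.14 ± 0.40), and shares reads with H2-Q6. Psmb10, a subunit of the immunoproteasome, fell from 94.7, 96.3 and 85.8 CPM to 32.9, 50.9 and 48.8 CPM (-0.80 ± 0.22, adjusted p = 0.022), a call lost without untreated mouse 1, 2 or 3 (adjusted p = 0.0741, 0.081 and 0.0595).

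**Figure D3:**
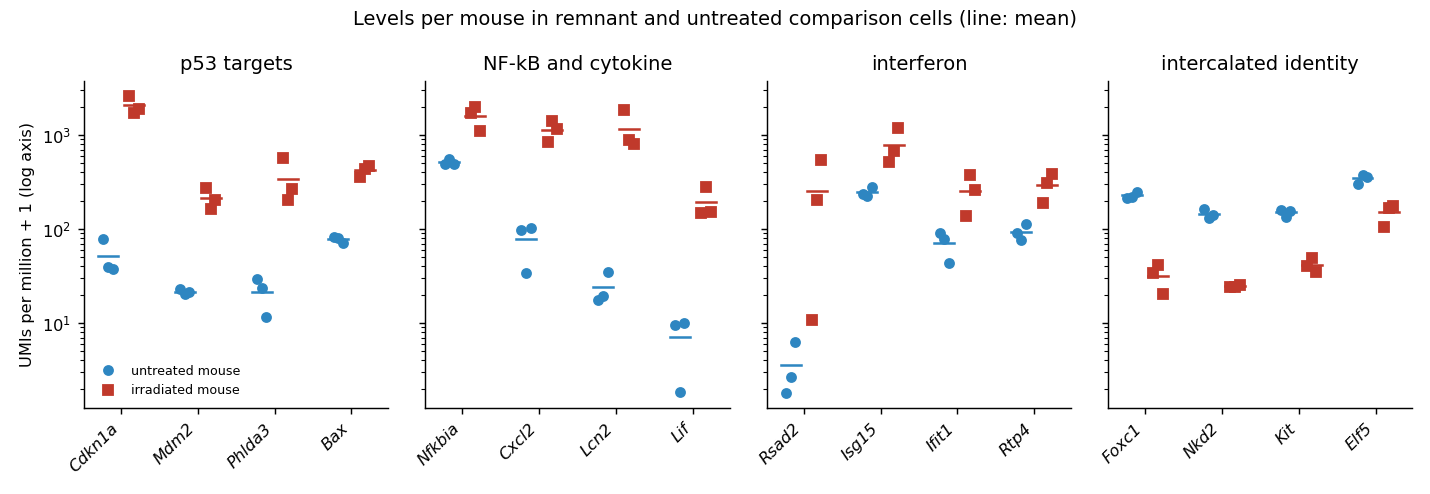
Level of named genes in each of the 6 mice (CPM + 1 on a log axis, each point a mouse's sum over its selected cells, circles untreated, squares irradiated, lines the group means). For Cdkn1a the untreated mice lie between 36.6 and 76.7 CPM and the irradiated mice between 1722 and 2601 CPM, and for Foxc1 the irradiated mice lie below the untreated ones.

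Genes of intercalated duct identity moved the other way. Of 13 tested genes (16 listed) 7 fell and 3 rose, against 9.96% of all genes that fell, with a median log2 fold change of -0.49. The number that fell was 6 or 7 whichever mouse was left out. Foxc1 (chr13:31806646-31810635), a forkhead transcription factor, fell from 212, 218 and 249 CPM to 32.9, 40.6 and 19.5 CPM (-2.50 ± 0.23, adjusted p = 0.00011). Nkd2 (chr13:73818534-73847631), an inhibitor of Wnt signalling, fell from 162, 130 and 140 CPM to 23, 23.1 and 24.4 CPM (-2.43 ± 0.22, adjusted p = 9.7e-05). Neither group overlapped the other for these 2 genes. Gfra3, a receptor for the neurotrophic factor artemin, fell by 1.96 ± 0.37 and Kit, the receptor for stem cell factor, by 1.59 ± 0.21 on the log2 scale.

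The falls left Kit and Elf5 above their level in granular duct-like cells. Kit stood at 160, 134 and 153 CPM in the untreated and 39.5, 47.7 and 34.2 CPM in the irradiated mice, but at 1.25, 0.803 and 1.77 CPM in granular duct-like cells of the irradiated mice. Elf5, an ETS factor of secretory epithelia, stood at 301, 374 and 359 CPM and at 105, 166 and 176 CPM (-1.01 ± 0.22, adjusted p = 0.0084), and at 2.87, 2.98 and 1.64 CPM in those granular duct-like cells. Ionocyte-like cells of the irradiated library were closer. Thinned to 3000 UMIs, 18.1% of them had a Kit UMI and 19.0% an Elf5 UMI, against 17.6% and 30.3% of the selected cells. Comparisons between cell classes are descriptions, as the clusters were formed on these genes. Thinned to 3000 UMIs, 0%, 9.68% and 0% of the cells of irradiated mice 1, 2 and 3 had a Foxc1 UMI, against 42.6%, 40.8% and 48.7% in the untreated mice. In granular duct-like cells of the irradiated mice the Foxc1 shares were 6.85%, 3.58% and 4.47%. Sox9, a regulator of duct progenitors, stood at 462, 541 and 513 CPM and at 266, 366 and 356 CPM, short of the threshold (-0.42 ± 0.19, adjusted p = 0.13).

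The 3 that rose were Lif, which was picked with its difference known, Csn3 and Kcnn4. Csn3 (chr5:87925579-87932550), the milk protein kappa-casein, had no UMI in any untreated mouse and 3453, 19.9 and 68.3 CPM in the irradiated mice, at least 781-fold higher against a floor of 3 UMIs over the untreated group. Without the mixed cluster its irradiated values were 0, 0.825 and 68.3 CPM. Kcnn4, a calcium-activated potassium channel of secretory cells, stood at 18, 36.3 and 42.5 CPM and at 227, 190 and 34.2 CPM (2.50 ± 0.44, adjusted p = 0.0025), with irradiated mouse 3 inside the untreated range.

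Genes of acinar regulation and fluid secretion were called in both directions. Of 22 tested (28 listed), 4 rose and 4 fell, against 13.6% and 9.96% of all genes, with a median log2 fold change of 0.11. Only 2 rose without irradiated mouse 2 or untreated mouse 2, and 2 fell without irradiated mouse 1 or any of the untreated mice. Ano1, the calcium-activated chloride channel that drives fluid secretion, fell from 157, 180 and 158 CPM to 59.2, 78.0 and 48.8 CPM (-1.11 ± 0.21, adjusted p = 0.0033). The sodium-potassium-chloride cotransporter gene Slc12a2 stood at 254, 454 and 374 CPM and at 88.8, 277 and 146 CPM (-0.78 ± 0.36, adjusted p = 0.14). Its call depended on the setting, as it passed in 6 alternatives, among them without irradiated mouse 2 (-1.52, adjusted p = 0.0124), with the same rule in both libraries (-0.88, adjusted p = 0.0422) and over Wfdc18-chosen cells with acinar genes under 1% (-0.92, adjusted p = 0.0122). Aqp5, the water channel of acinar cells, stood at 13.3, 69.2 and 49.3 CPM and at 118, 112 and 4.88 CPM, with the groups overlapping (1.24 ± 0.56, adjusted p = 0.13). Over Wfdc18-chosen cells with acinar genes under 1% its fold change turned to -2.69 (adjusted p = 0.0246), and without irradiated mouse 3 it was 1.57 (adjusted p = 0.0403). Adrb1, a receptor for noradrenaline, fell (-3.03 ± 0.54, adjusted p = 0.0029), a call lost without irradiated mouse 2 (-2.67, adjusted p = 0.0523).

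Granular duct-like cells of the same mice served to ask which changes differed between cell classes. There were 1210 irradiated and 485 untreated cells of that class outside the rule. In them 19.5% of 9586 genes rose and 19.2% fell. The interaction of irradiation and class, fitted with each mouse as a block, passed for 261 of 9387 genes (2.78%) in which the change was more positive in the Wfdc18/Bpifa2/Dcpp cells, and for 219 (2.33%) in which it was more negative. Without untreated mouse 1, 2 or 3 these numbers were 149, 102 and 107 and then 87, 84 and 67, and without irradiated mouse 2 the first was 129.

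Immediate-early genes, switched on within minutes by growth factors and by handling of cells, differed between the classes. In granular duct-like cells 17 of 21 tested fell and 3 rose, with a median log2 fold change of -1.80. In the selected cells 6 of 20 rose and 3 fell, with a median of -0.20. With a mouse left out 4 to 7 rose (4 without irradiated or untreated mouse 2) and 1 to 5 fell (1 without untreated mouse 3, 5 without irradiated mouse 1, and 2 without any other mouse), and 7 rose and 1 fell without the mixed cluster. The difference passed for 15 of 21 genes, all in the same direction, and for 13 to 16 whichever mouse was left out. Egr1 stood at 1133, 823 and 1344 CPM in the untreated comparison cells and 944, 755 and 820 CPM in the selected irradiated cells (-0.22 ± 0.18, adjusted p = 0.41). In granular duct-like cells it fell from 823, 643 and 999 CPM to 210, 130 and 106 CPM, and the interaction was 2.44 ± 0.21 (adjusted p = 1.8e-05).

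Zfp36, which encodes an RNA-binding protein that destabilises cytokine messages, had log2 fold changes of opposite sign in the 2 classes. In the selected cells it stood at 949, 1065 and 1289 CPM untreated and 1417, 1507 and 2201 CPM irradiated (0.82 ± 0.20, adjusted p = 0.014). That call was lost without untreated mouse 1 (adjusted p = 0.0605) or 2 (0.0639), and when each cell's mouse was taken from its hashtag share (0.22, adjusted p = 0.471). In granular duct-like cells it fell from 716, 673 and 773 CPM to 133, 124 and 90.1 CPM (interaction 3.57 ± 0.26, adjusted p = 6.4e-06). Fos fell in both classes, from 4138, 4028 and 5016 CPM to 2963, 1220 and 1176 CPM in the selected cells (-1.16 ± 0.27, adjusted p = 0.0099; -0.83, adjusted p = 0.13, without the mixed cluster). Its fall in granular duct-like cells was larger (interaction 2.24 ± 0.18, adjusted p = 1.2e-05). Ier5 rose in the selected cells from 232, 103 and 121 CPM to 868, 1231 and 1532 CPM (3.17 ± 0.34, adjusted p = 0.00017).

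Heat shock chaperones were compared in the same way. Of 14 tested, 9 fell and 1 rose in granular duct-like cells, and 2 fell and 3 rose in the selected cells (1 rose without irradiated or untreated mouse 2). Of all genes 19.2% fell and 19.5% rose in granular duct-like cells, and 9.96% fell and 13.6% rose in the selected cells, so the chaperones' shares in the selected cells were near those of all genes. The difference passed the test for 6 (3 without untreated mouse 2 or 3, 4 without irradiated mouse 2). Hspa1b, an inducible Hsp70 gene that shares reads with Hspa1a, stood at 246, 414 and 624 CPM in untreated comparison cells and 191, 104 and 73.2 CPM in the selected cells (-1.64 ± 0.35, adjusted p = 0.0067). In granular duct-like cells it went from 108, 196 and 450 CPM to 33.2, 21.9 and 7.77 CPM (interaction 1.94 ± 0.28, adjusted p = 0.00078). Bag3, a co-chaperone, rose in the selected cells from 51.6, 27.9 and 57.5 CPM to 141, 92.3 and 181 CPM (1.65 ± 0.31, adjusted p = 0.0033). It stood at 56.1, 43.9 and 89.2 CPM and 78.9, 65.5 and 55.1 CPM in granular duct-like cells (interaction 1.71 ± 0.29, adjusted p = 0.0034).

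**Figure D4:**
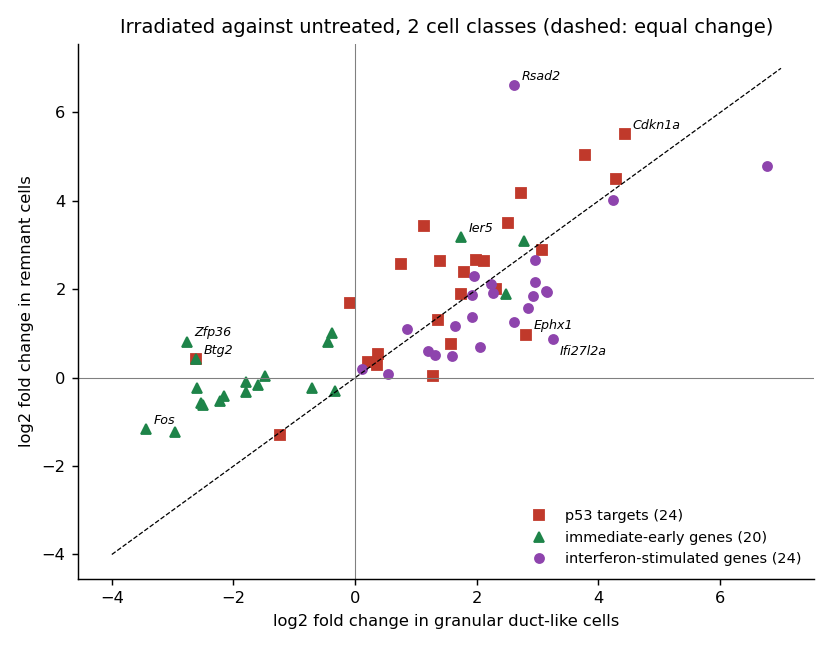
Log2 fold change after irradiation in granular duct-like cells (x axis) and in the selected cells (y axis), each point a gene of the immediate-early, p53 or interferon list tested in both, with a dashed line of equal change. Zfp36 lies at 0.82 in the selected cells and -2.76 in granular duct-like cells, and most immediate-early genes lie above the line.

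The damage and interferon genes moved in both classes. Of the p53 list 18 of 26 rose and 2 fell in granular duct-like cells, and the interaction passed for 5 genes more positive in the selected cells and 2 more negative of 27, the 5 becoming 1 without untreated mouse 3, 2 without untreated mouse 1, irradiated mouse 2 or irradiated mouse 3, 3 without untreated mouse 2 and 2 without the mixed cluster. Cdkn1a in granular duct-like cells went from 30.5, 9.79 and 17.8 CPM to 640, 412 and 284 CPM, and its interaction (1.14 ± 0.27, adjusted p = 0.024) was lost without untreated mouse 1 (adjusted p = 0.117), untreated mouse 3 (0.176), irradiated mouse 2 (0.0599), irradiated mouse 3 (0.0737) or the mixed cluster (1.06, adjusted p = 0.0519). Of 26 interferon-stimulated genes 24 rose in granular duct-like cells, and 4 of 26 had an interaction more negative in the selected cells (1, 1 and 2 without untreated mouse 1, 2 and 3). The 1 more positive there was Rsad2 (interaction 4.04 ± 0.93), given without a test as it was near 0 in the untreated comparison cells. It did not pass without untreated mouse 1 or 3. Ifi27l2a was among the 4 more negative: it stood at 1234, 3366 and 2441 CPM and 2759, 3928 and 4602 CPM in the selected cells, with overlap. In granular duct-like cells it rose from 169, 312 and 418 CPM to 2934, 2767 and 3563 CPM (interaction -2.38 ± 0.24, adjusted p = 5.3e-05).

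Other genes had an interaction more negative in the selected cells. Cyp2f2, a cytochrome P450 best known from airway club cells, fell from 2875, 3023 and 3205 CPM to 444, 352 and 473 CPM (-2.68 ± 0.15, adjusted p = 6.4e-06), with an interaction of -1.93 ± 0.21 (adjusted p = 1e-04). Cited4, a transcriptional coactivator partner, fell from 468, 606 and 538 CPM to 59.2, 97.0 and 24.4 CPM (-2.76 ± 0.32, adjusted p = 0.00023), with an interaction of -2.35 ± 0.35 (adjusted p = 0.0011). Neither overlapped between groups, as the rule for the largest falls required. Gstt1, a glutathione transferase, fell by 1.02 ± 0.20 in the selected cells (not past the test in intercalated or acinar clusters alone, adjusted p = 0.0922) and rose by 1.68 in granular duct-like cells (interaction -2.69 ± 0.32, adjusted p = 0.00021). Sox9, which did not pass in the selected cells, rose by 1.14 in granular duct-like cells (interaction -1.56 ± 0.22, adjusted p = 0.00071).

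**Figure D5:**
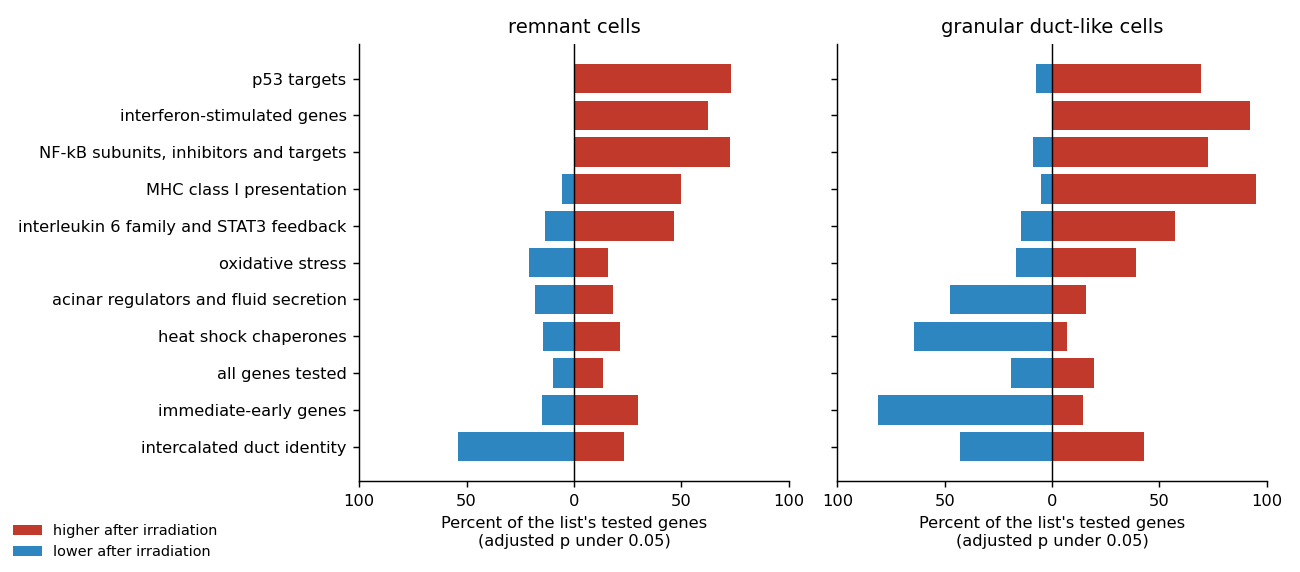
For 10 gene lists and all genes tested, bars give the percent of tested genes higher (right, red) and lower (left, blue) after irradiation at an adjusted p under 0.05 (x axis), in the selected cells (left panel) and in granular duct-like cells (right panel). In the selected cells the p53 list has 19 of 26 higher and the intercalated duct identity list 7 of 13 lower.

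Outside the lists above, the largest rises, named by a rule on size and lack of overlap, included growth factor and matrix genes. Krt17, a keratin of basal and injured epithelia (chr11:100256215-100261029), stood at 0.782, 0.844 and 0 CPM in the untreated and 921, 425 and 39.0 CPM in the irradiated mice. With 2 UMIs over the untreated mice it could pass the filter only through the irradiated ones, so no test is given. Without the mixed cluster its irradiated values were 0, 304 and 39.0 CPM. Pdgfb, a platelet-derived growth factor chain, stood at 0, 0 and 5.23 CPM and at 75.6, 69.2 and 63.4 CPM (5.33 ± 0.54). Pmepa1, a feedback inhibitor of TGF-beta signalling, stood at 2.35, 6.76 and 9.70 CPM and at 431, 171 and 102 CPM (5.33 ± 0.51). All 3 were higher in every irradiated mouse, as the rule required. Ecm1 (5.77 ± 0.61), an extracellular matrix protein, Apol9a (5.21 ± 0.58), an apolipoprotein L, and the peptide hormone gene Cck (5.14 ± 0.81) were also among them, and without the mixed cluster mouse 1 had no Ecm1.

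Keratins and genes associated with progenitors rose in part. Of 8 tested keratins 5 rose and none fell, against 13.6% of all genes that rose, with 3 rising without the mixed cluster and 4 to 7 with a mouse left out. Krt17 and Krt19 were among the 5. As they could pass the filter only through the irradiated mice, they could hardly have fallen, and the count is no support for a rise of the list. Krt19, a simple-epithelial keratin of ducts, stood at 0, 5.07 and 8.21 CPM in the untreated and 174, 47.7 and 283 CPM in the irradiated mice (5.09 ± 0.76). Of 14 tested progenitor-associated genes 6 rose and 1, Kit, fell, against the same 13.6% and 9.96%. Clu, the secreted chaperone clusterin, rose from 540, 465 and 466 CPM to 858, 2385 and 3279 CPM (2.35 ± 0.39, adjusted p = 0.002). Anxa1, an anti-inflammatory annexin, rose from 2440, 1530 and 2558 CPM to 4305, 9888 and 11039 CPM (2.15 ± 0.34, adjusted p = 0.0015). In both genes irradiated mouse 1 was the lowest of its group.

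The largest falls, named by the same rule, included 2 genes of the exocrine gland-secreted peptide family. Esp18 fell from 243, 1268 and 1039 CPM to 16.4, 47.7 and 63.4 CPM (-4.11 ± 0.60, adjusted p = 0.00099). Esp4 fell from 984, 1584 and 1818 CPM to 280, 126 and 244 CPM (-2.65 ± 0.29, adjusted p = 0.00021). The irradiated mice lay below every untreated mouse for both, as the rule required. G0s2, an inhibitor of fat breakdown, fell from 138, 302 and 428 CPM to 59.2, 14.3 and 0 CPM (-3.51 ± 0.60). At 0 in irradiated mouse 3, it could pass the low-count filter only through the untreated mice, so no test of this fall is given. G0s2 fell in granular duct-like cells too (interaction 0.42 ± 0.54, adjusted p = 0.73). Hspa1a (-3.32 ± 0.42), Fam13a (-3.28 ± 0.35), Hsf2bp (-3.16 ± 0.50) and Gmnn (-2.60 ± 0.32), the last an inhibitor of DNA replication licensing, were also among them. Klf2 also fell (-2.89 ± 0.65), a call lost without irradiated mouse 2 (-2.50, adjusted p = 0.0841).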

How the data were processed

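Single-cell RNA was measured in 3 pooled libraries of sorted submandibular epithelium. The deposited matrices hold unnormalized UMI counts for each barcode, made by the authors with Cell Ranger 6.1.2 on mm10, per the submitters' processing notes. The cells and the gene lists were chosen with earlier results of these data known.

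Barcodes (500 genes, 20% mitochondrial UMIs) were assigned to mice with HTODemux (Seurat 5.3.0, quantile 0.99, 5 starting clusters). The 2 whole-epithelium libraries were clustered together (scanpy 1.11.5, 2000 variable genes, 30 components, 15 neighbours, Leiden resolution 1, no batch correction), and clusters were named from marker lists. Counts were summed per mouse without the 11 rule genes and tested with edgeR 4.0.16 (quasi-likelihood F test after filterByExpr and TMM, Benjamini-Hochberg adjustment at 0.05), with the mouse as replicate and a block per mouse in the interaction fit. Hashtag doublets and cells without a hashtag call were left out of tests. Doublets within a mouse were removed in an alternative only. The tests were checked on simulated data. Named genes are the 12 largest changes per direction among genes past the threshold without overlap and with at least 20 CPM, up to 4 per list, and the 5 largest interactions per direction. Further list genes named for a contrast, such as Egr1, Fos, Sox9, Slc12a2 and Ifi27l2a, were chosen after their values were seen. One gene that the rule names is not reported here. Intervals between mice reflect 3 mice per group in 1 library each. The basal sort was used only for the share of its barcodes that meet the rule.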

Additional observations from a re-analysis of the deposited data

Results flagged for a closer look

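For 10 genes the irradiation effect in the Wfdc18/Bpifa2/Dcpp cells differed most from that in granular duct-like cells, by the interaction test of edgeR. These are log2 differences between the 2 effects.

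Mup5, a major urinary protein gene, had an interaction of 8.997, from values of 0, 412 and 0 CPM in the selected cells of irradiated mice 1, 2 and 3. Without irradiated mouse 2 it was -3.46 (adjusted p = 0.791), so it rests on that mouse. Ccl5, a chemokine, had 8.17, and without untreated mouse 2, whose granular duct-like cells held 52.7 CPM, 1.49 (adjusted p = 0.869). Ptn, a growth factor, had 6.63 and Apoe, an apolipoprotein, 6.32. Irradiated mouse 1, with 7 cells of the mixed cluster, stood at 312 CPM for Ptn and 904 CPM for Apoe, and the other irradiated mice at 36.6 and 0 CPM and at 74.8 and 0 CPM. The adjusted p of Ptn was 0.248, 0.132 and 0.0519 without untreated mouse 1, 2 and 3, and that of Apoe 0.107 without untreated mouse 2. Aqp5, the acinar water channel, had 6.60: it stood at 118, 112 and 4.88 CPM in the selected irradiated cells, and fell from 2.89, 5.37 and 2.60 CPM to 0.179, 0.0574 and 0 CPM in granular duct-like cells. Among the selected cells, 3 in acinar-like clusters held 85 Aqp5 UMIs and 12 in the mixed cluster held 42. The 88 in the cluster led by Bpifa2 and Cxcl2 held 56, with a UMI in 11.4% of them. Over Wfdc18-chosen cells with acinar genes under 1% the Aqp5 change was -2.69.

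Bst1, an ectoenzyme, had -6.06. It was at 0 in all untreated granular duct-like cells, so the fitted value is no measure of size, and the call was lost without any untreated mouse or irradiated mouse 2 (adjusted p = 0.119, 0.114, 0.0927 and 0.0935). Serpinb11, a protease inhibitor, had -6.02, going from 10.2, 46.4 and 16.4 CPM to 0, 3.18 and 0 CPM in the selected cells and from 2.06, 7.26 and 2.16 CPM to 20.8, 33.5 and 24.9 CPM in granular duct-like cells. Hsf2bp had -4.61, with an adjusted p of 0.0511 and 0.0531 without untreated mouse 2 and 3. Rhov, a small GTPase, had -3.96: it stood at 99.4, 125 and 122 CPM and 151, 147 and 122 CPM in the selected cells and rose from 2.06, 1.58 and 0.433 CPM to 41.6, 30.6 and 31.1 CPM in granular duct-like cells. Tmem140 had -3.67.

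The basal sort of untreated glands was not used in the comparisons. There 86 of 4418 barcodes past the filter, or 1.95%, met the rule of the irradiated cells, above the 0.0679% that a count of 0 would allow, and all through Wfdc18.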

How the results depend on the processing

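The count of lower genes was 468 with DESeq2, 496 with Wfdc18 at 2% or more and 478 with the hashtag number as a replicate block (833 higher), against 802. The interaction's lower count was 468 with no low-count filter, against 219. Leaving out each mouse in turn gave 639 to 1248 higher and 345 to 874 lower genes, interactions of 102 to 345 higher and 67 to 312 lower, and a mean irradiated share of 3.55% to 5.02%. The Mup5 interaction ranged from -3.46 (reversed, adjusted p = 0.791, without irradiated mouse 2) to 9.58 with a mouse left out. The Egr1 change turned from -0.22 to 0.13 in intercalated or acinar clusters alone and to 0.015 without the mixed cluster, with no call in any of them, and the Aqp5 change to -2.69 over Wfdc18-chosen cells with acinar genes under 1%. The causes were not tested. Same-numbered mice did not deviate together (correlations -0.07, -0.02 and 0.01), so the numbers do not pair them. Of the named genes' changes and interactions, 101 kept their direction and side of the threshold under every alternative that could be fitted and 75 did not, most often without untreated mouse 2 (41), irradiated mouse 2 (40) or untreated mouse 3 (39). Leaving out the mixed cluster, and keeping only Wfdc18-chosen cells with acinar genes under 1%, were chosen after seeing the data. With mice called by hashtag share, or Wfdc18 at 2% or more, irradiated mouse 3 had 8 and 9 cells and was left out. Calls by hashtag share also gave untreated mice 1 and 3 only 25 and 27 cells, against 146 and 162, and irradiated mouse 2 89 cells, against 63. With that hashtag rule the Cxcl2 fold change was 2.04 on the log2 scale. Irradiated mice 1 and 3 rest on 19 and 11 cells, so genes under about 5 CPM in them are near 1 UMI.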

Other observations

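Other gene groups of the Wfdc18/Bpifa2/Dcpp cells were measured but belong to no comparison above. Among ligands of the EGF receptor family, Areg, amphiregulin, rose from 3.13, 2.53 and 3.73 CPM in the untreated to 65.8, 50.9 and 29.3 CPM in the irradiated mice (4.13 ± 0.35). Nrg1, neuregulin, had no UMI in the untreated mice and 26.3, 10.3 and 9.76 CPM in the irradiated mice, at least 16.5-fold higher against a floor of 3 UMIs over the untreated group. In both genes the groups did not overlap. Jag1, a Notch ligand, went from 0, 1.69 and 0.746 CPM to 32.9, 14.3 and 34.2 CPM, with 3 UMIs over the untreated mice and no test given. Wnt4, a secreted Wnt ligand, fell from 172, 149 and 189 CPM to 16.4, 54.9 and 58.6 CPM (-1.69 ± 0.31, adjusted p = 0.0032 by edgeR).

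Of 19 tested oxidative stress genes 3 rose and 4 fell, against 13.6% and 9.96% of all genes, with 5 rising without untreated mouse 1 and 2 without irradiated mouse 2 or untreated mouse 2 or 3. Hmox1, heme oxygenase, rose from 110, 66.7 and 83.6 CPM to 418, 925 and 1283 CPM (3.53 ± 0.39, adjusted p = 0.00021), while Cat, catalase, fell from 284, 320 and 349 CPM to 52.6, 103 and 102 CPM (-1.66 ± 0.25, adjusted p = 0.0012). Neither overlapped between groups. Of 10 tested senescence-associated genes 6 rose and 1 fell, against the same shares of all genes, and Plaur, the urokinase receptor, rose from 44.6, 11.8 and 33.6 CPM to 145, 615 and 351 CPM (3.87 ± 0.54, adjusted p = 0.0008). Timp1, an inhibitor of matrix proteases, rose from 14.9, 10.1 and 9.70 CPM to 26.3, 153 and 117 CPM (3.43 ± 0.49, adjusted p = 0.00091). Casp4, an inflammatory caspase, rose from 4.69, 4.22 and 5.23 CPM to 138, 75.6 and 29.3 CPM (4.27 ± 0.42). Of 23 tested genes of endoplasmic reticulum folding and secretory load 4 rose and 2 fell, near the 13.6% and 9.96% of all genes, with a median log2 fold change of 0.12. None of these rose without irradiated mouse 2, untreated mouse 2, untreated mouse 3 or the mixed cluster.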
